A study of Homo sapiens with 15 samples.

Results

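The genes described here encode the protein disulfide isomerases and related oxidases of the endoplasmic reticulum (ER). They were taken by name as members of this family, with earlier results of these data known, and are P4HB, PDIA3, PDIA4, PDIA5, PDIA6, ERP44, TXNDC5, TXNDC11, TMX1 and ERO1A, which make up 10 of the 59608 genes in the table. All 10 passed the filter on low values, a mean of 10 normalized counts, and were tested. RNA came from MDA-MB-231 cells, a human triple-negative breast cancer line, grown as 2D monolayers in dishes. The cells were treated for 6 h with 0.5, 5, 50 or 500 nM ZJ-101, a simplified analog of the marine sponge product superstolide A, or with 0.1% DMSO as vehicle. Each of the 5 groups held 3 biological replicates with 1 library each, so the 15 libraries describe 1 cell line at 1 time point. Whether the replicates were parallel dishes or separate experiments is not given in the sources used here.

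Proteins that enter the secretory pathway form disulfide bonds in the lumen of the ER. Protein disulfide isomerases carry thioredoxin-like domains that make, break and rearrange these bonds, and the oxidase ERO1A passes the electrons they collect on to oxygen. Several of these genes are known targets of the unfolded protein response, the program that adjusts folding capacity to the load of client proteins, and ERO1A is also known as a hypoxia-responsive gene.

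The values were counts of poly-A RNA divided by a size factor per library, called normalized counts here. A library held 12415519 to 15284762 reads on genes (median 13320354), of which 0.889% to 2.06% were mitochondrial. Chi-square divided by its degrees of freedom was 2.04 to 16.6 between replicates, where counting noise alone is near 1, so no library was a duplicate of another. The highest values, 11.1 and 16.6, were those of the pairs with 0.5 nM replicate 2, a library that stood apart, and the next highest was 6.27. Without it, 0, 3, 8 and 9 of the genes described here were called at 0.5, 5, 50 and 500 nM, while calls over all genes at 50 nM went from 814 to 1276. Of the markers used to check the line, VIM, CD44, AXL and CAV1, listed as present, lay between 7328 and 18414 normalized counts in every library. ESR1 had at most 4.30 normalized counts, PGR at most 17.3 and the leukocyte gene PTPRC at most 3.53, while the endothelial gene PECAM1 had 200.8 to 321. The epithelial genes CDH1, EPCAM and GATA3, which like ESR1 and PGR were listed as low or absent, lay between 107 and 320.2. They and PECAM1, listed for another cell type, were thus absent from no library. Tests were made with limma on log2(normalized count + 1) over 13561 genes with all groups in 1 fit, and a gene was called when its Benjamini-Hochberg adjusted p was under 0.05. In bulk RNA, fewer cells that express a gene and less of its RNA per cell cannot be told apart.

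The question for each dose was which of these genes differed from the vehicle. Against DMSO, 0 of the 10 genes were called at 0.5 nM, 2 at 5 nM, 5 at 50 nM and 9 at 500 nM, and every call was a decrease. For comparison, 0.922%, 1.71%, 3.71% and 10.1% of all tested genes were called lower at these doses. The genes lower at 5 nM were PDIA5 and PDIA6. ERP44, ERO1A and TXNDC11 joined them at 50 nM, and P4HB, PDIA3, PDIA4 and TXNDC5 at 500 nM. TMX1 was the member with no call at any dose. The median log2 fold change of the 10 genes was -0.04, -0.15, -0.41 and -0.48 from the lowest to the highest dose, beside -0.01, 0.00, 0.00 and 0.00 for all tested genes. The 4 comparisons share the DMSO libraries and are not independent of each other.

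At 0.5 nM, 1 of the 10 genes had an unadjusted p under 0.05 by limma, and edgeR and DESeq2 each called 0. This gene was TXNDC11. The libraries of a dose lay wholly below those of DMSO for 1, 8, 7 and 9 members at 0.5, 5, 50 and 500 nM, beside 10.7%, 12.7%, 13.2% and 19.6% of all tested genes. For TXNDC5 and TXNDC11 the margin at 5 nM was very narrow. Their highest 5 nM libraries had 269.9 and 316.4 normalized counts, against 270.0 and 316.5 in their lowest DMSO libraries. At 5 nM, 0 members were called without DMSO replicate 1, DMSO replicate 2, 5 nM replicate 2 or 5 nM replicate 3, and 1 without DMSO replicate 3. With single libraries left out, the log2 fold change at 5 nM stayed between -0.43 and -0.33 for PDIA5 and between -0.21 and -0.18 for PDIA6. Calls over all genes at 5 nM also fell, from 295 to between 113 and 210 under these 5 omissions. At 50 nM, 8 members were called without 0.5 nM replicate 2, which plays a part because all groups share the spread in the fit, and 8 without 50 nM replicate 2, where calls over all genes numbered 859.

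**Figure D1:**
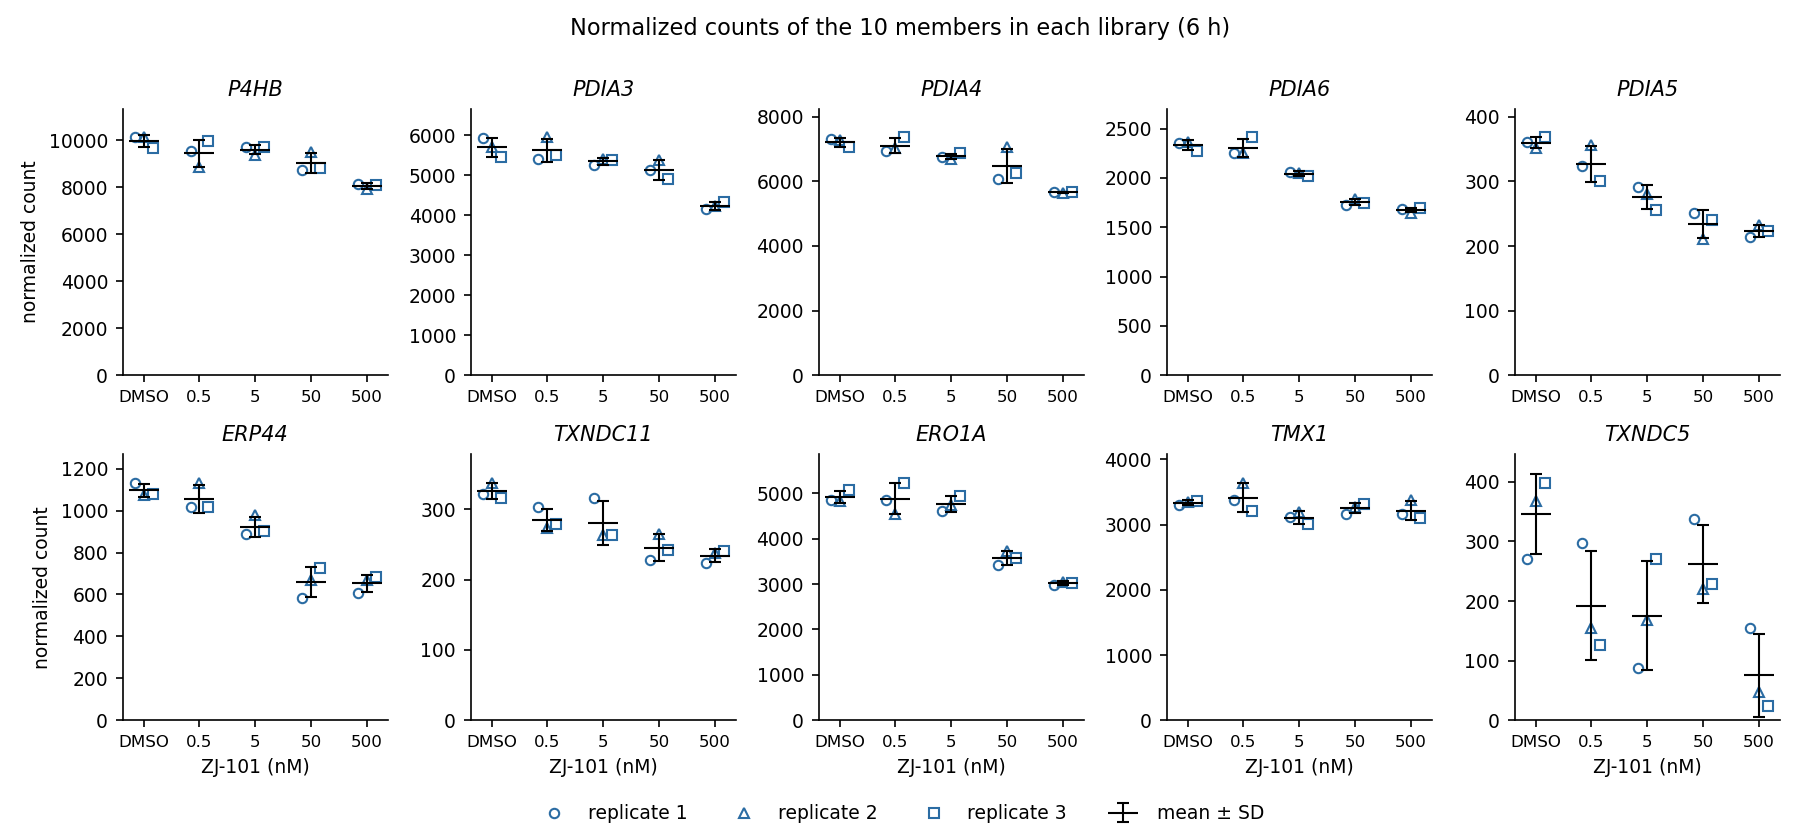
Normalized counts (y axis, linear and starting at 0, with its own scale in each panel) of the 10 genes at each dose of ZJ-101 (x axis) after 6 h. Open symbols are single libraries by replicate number, and black bars are the mean ± SD of 3 libraries. The 500 nM libraries lie below the DMSO libraries in every panel except that of TMX1, and TXNDC5 has the widest spread within groups.

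Levels of different genes were compared per kilobase of their longest transcript. In DMSO, PDIA4 had 2469 ± 47.1 normalized counts per kb (SD, n = 3), PDIA3 1541 ± 63.6, P4HB 1216 ± 33.1 and ERO1A 957 ± 26.3. PDIA6 followed with 869.6 ± 18.4 and TMX1 with 828 ± 9.17. The other members were lower, with 184 ± 5.35 for ERP44, 161 ± 3.89 for PDIA5, 118 ± 22.9 for TXNDC5 and 102 ± 3.49 for TXNDC11. TXNDC5 and TXNDC11 did not differ beyond the spread of TXNDC5. Other genes share 90.6% of the canonical TXNDC5 transcript, and how reads on shared bases were counted is not given. The level of TXNDC5 per kb and its place in this order are therefore uncertain. Genes on the opposite strand overlap 45.3% of the canonical transcript of PDIA6 and 21.7% each of those of PDIA3 and P4HB. For TXNDC11 the overlap is 14.5% and for ERO1A 11.3%. The strand setting of the counting is not given, and the effect of these overlaps on the levels was not tested. The order depended on the length used. For P4HB the longest annotated transcript is 8201 bases and the canonical one 2437 bases. With canonical lengths, P4HB was the highest member at 4092 ± 111 normalized counts per kb, and PDIA6 (1023 ± 21.6) lay above ERO1A (957 ± 26.3).

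P4HB (chr17:81843159-81860856, minus strand, GRCh38) encodes the archetypal protein disulfide isomerase, which is also the beta subunit of collagen prolyl 4-hydroxylase. It had 10126, 10131 and 9658 normalized counts in the DMSO libraries and 8140.2, 7927 and 8109 at 500 nM. The libraries at 5 nM lay between 9385 and 9721 and those at 50 nM between 8730.3 and 9524. The 500 nM libraries lay below every other library of the series, and the 0.5 nM and 5 nM libraries overlapped those of DMSO. The log2 fold change at 500 nM was -0.31 ± 0.05 (SE, limma adjusted p = 0.000104), so P4HB fell by 19.2%. At 50 nM it was -0.14 with an adjusted p of 0.083.

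PDIA3 (chr15:43746394-43773279, plus strand) works on glycoproteins bound to the lectins calreticulin and calnexin. It had 5927, 5702 and 5457 normalized counts in DMSO, 5114, 5371 and 4889 at 50 nM, and 4141, 4214 and 4332 at 500 nM. The 500 nM libraries lay below all others, while those at 50 nM lay below DMSO by a narrow margin. The log2 fold change was -0.15 at 50 nM (adjusted p = 0.0622) and -0.43 ± 0.05 at 500 nM (adjusted p = 2.08e-06), and PDIA3 fell by 25.7% at the highest dose. The processed pseudogene PDIA3P1, whose sequence resembles that of PDIA3, had 200.8 to 288 normalized counts and a log2 fold change of -0.44 at 500 nM (adjusted p = 0.000498). Reads of the gene and of the pseudogene may have been split between them by the counting. PDIA3P2 had at most 2.15 normalized counts.

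PDIA4 (chr7:149003062-149028662, minus strand), is a large isomerase with 3 catalytic domains. The DMSO libraries held 7296, 7285 and 7052 normalized counts, and those at 500 nM 5662, 5643 and 5683. At 50 nM the values were 6075, 7059.9 and 6251, so that replicate 2 lay within the DMSO range. The log2 fold change was -0.35 ± 0.05 at 500 nM (adjusted p = 3.10e-05), and PDIA4 fell by 21.5%. At 50 nM it was -0.16 (adjusted p = 0.0541), and without 50 nM replicate 2 it was -0.23 (adjusted p = 0.00162).

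PDIA6 (chr2:10783391-10837977, minus strand), an isomerase that also binds the ER stress sensors, had the smallest spread of the members. The DMSO libraries held 2357, 2364 and 2276 normalized counts and those at 0.5 nM 2255, 2255 and 2411. The values were 2062, 2046 and 2016 at 5 nM, 1729.9, 1790.1 and 1743 at 50 nM, and 1681, 1647 and 1694 at 500 nM. From 0.5 nM upward no group overlapped the next, and the steps became smaller at the top. The log2 fold changes were -0.02, -0.19, -0.41 and -0.48 at the 4 doses, with an SE of 0.04 each and adjusted p-values of 0.907, 0.0144, 1.30e-06 and 6.89e-08. The standard deviation of its residuals was 0.033 on the log2 scale, rank 13432 of 13561 from the largest. ATP6V1C2, a gene on the opposite strand, overlaps 25.2% of the exon bases of PDIA6 and 45.3% of its canonical transcript. ATP6V1C2 had at most 9.61 normalized counts. The strand setting of the counting is not given, and the effect of this overlap on the counts of PDIA6 was not tested.

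PDIA5 (chr3:123067025-123225227, plus strand), a less abundant isomerase, was likewise called from 5 nM upward. Its DMSO libraries held 361, 351 and 368 normalized counts, and those at 0.5 nM 324, 356 and 301. The values were 291, 281 and 255 at 5 nM, 251, 211 and 240.4 at 50 nM, and 214, 233 and 223 at 500 nM. The 0.5 nM libraries overlapped DMSO, the 5 nM libraries lay below both, and those at 50 and 500 nM overlapped each other. The log2 fold changes were -0.14, -0.39, -0.62 and -0.69, with an SE of 0.08 each and adjusted p-values of 0.465, 0.0181, 6.11e-05 and 7.63e-06. SEC22A, on the same strand, overlaps 12.05% of the exon bases of PDIA5 outside its canonical transcript.

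Promoters were read from RefSeq on GRCh38.p14 for 9 of the 10 genes, all but PDIA3. They had 12 start sites in all, and 250 bases before each start were searched on both strands. Annotated exons covered all 250 bases for ERO1A and TXNDC11, 176 for P4HB and 172 at 1 of the starts of PDIA4. For ERO1A, P4HB and PDIA6 the searched bases lay inside the annotated gene, so the bases before its outermost annotated start were not searched. The ER stress response element, CCAAT and CCACG with 9 bases (N) between them, known as a site of ATF6 with NF-Y, occurred in 0.0740% of 35116 promoters and at 1 of these 12 starts, in PDIA6. The UPR element TGACGTGG occurred in 0.612% of promoters and at 1 start, in TXNDC5. The shorter parts were common. CCAAT was found in 32.0% of promoters and at 7 of these 12 starts, CCACG in 33.5% and at 6, and the hypoxia core ACGTG in 18.5% and at 5. The second ER stress element (ATTGG, 1 base, CCACG), the heat-shock element (GAA, TTC and GAA with 2 bases between each) and the amino acid response element TGATGNAAN were found in 0 of the 9 genes, beside 0.0513%, 0.441% and 3.13% of all promoters. A match describes letters and was not tested as a binding site.

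The promoters shown are those of the genes called at 5 nM and of the gene that holds the UPR element. For PDIA6, from 250 to 55 bases before one of its starts (chr2:10812840-10813035, minus strand), capitals mark the ER stress response element 86 to 68 bases before the start. For PDIA5 (chr3:123066775-123067024, plus strand), capitals mark a palindrome 121 to 114 bases before the start that holds CCACG and ACGTG on both strands with overlap. For TXNDC5 (chr6:7910078-7910327, minus strand), capitals mark the UPR element 92 to 85 bases before one of its starts, which overlaps matches to ACGTG and CCACG. Each is written from 5′ to 3′ on the strand of its gene.
PDIA6: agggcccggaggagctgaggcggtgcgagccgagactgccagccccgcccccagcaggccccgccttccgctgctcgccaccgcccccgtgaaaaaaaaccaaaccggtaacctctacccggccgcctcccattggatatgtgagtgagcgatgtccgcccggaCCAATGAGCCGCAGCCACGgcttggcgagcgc
PDIA5: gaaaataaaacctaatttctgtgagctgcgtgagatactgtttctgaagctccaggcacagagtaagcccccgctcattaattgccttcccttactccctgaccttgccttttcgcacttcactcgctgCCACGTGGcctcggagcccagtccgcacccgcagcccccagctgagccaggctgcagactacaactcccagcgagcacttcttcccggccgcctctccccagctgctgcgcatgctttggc
TXNDC5: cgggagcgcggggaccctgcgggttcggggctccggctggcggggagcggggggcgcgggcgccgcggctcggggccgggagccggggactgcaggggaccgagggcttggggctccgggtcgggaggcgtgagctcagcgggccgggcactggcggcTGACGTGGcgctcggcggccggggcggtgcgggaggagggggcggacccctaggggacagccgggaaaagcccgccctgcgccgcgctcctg

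ERP44 (chr9:99979185-100099052, minus strand) retains ERO1A and unassembled secretory proteins by binding them through a thiol in the early secretory pathway and returning them to the ER. The DMSO libraries held 1134, 1076 and 1082 normalized counts, and those at 5 nM 888, 978 and 902. The values were 585, 667 and 728 at 50 nM and 607, 669.5 and 684 at 500 nM. The 5 nM libraries lay below DMSO, the 50 nM libraries lay well below those of 5 nM, and the 50 and 500 nM libraries overlapped. The log2 fold changes were -0.25 ± 0.07 at 5 nM (adjusted p = 0.0860), -0.74 ± 0.07 at 50 nM (adjusted p = 1.44e-06) and -0.75 ± 0.07 at 500 nM (adjusted p = 5.18e-07). ERP44 fell by 40.4% at 500 nM. No other annotated gene overlaps its exons.

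ERO1A (chr14:52639915-52695900, minus strand), the oxidase that recharges the isomerases and that ERP44 retains, did not pass the threshold at the lower doses. The DMSO libraries held 4847, 4829 and 5072 normalized counts, those at 0.5 nM 4847, 4548 and 5235, and those at 5 nM 4606, 4735 and 4949. The values were 3423, 3737 and 3578 at 50 nM and 2983, 3052 and 3029 at 500 nM. The groups up to 5 nM overlapped, and the 50 nM and 500 nM libraries each lay below all libraries of the lower doses. The log2 fold changes were -0.01, -0.05, -0.46 and -0.70, with an SE of 0.05 each and adjusted p-values of 0.941, 0.769, 4.63e-06 and 6.77e-09. At 5 nM its 95% confidence interval ran from -0.15 to 0.06.

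TMX1 and TXNDC11 are membrane-anchored relatives of the soluble isomerases. TMX1 (chr14:51240162-51257655, plus strand), which acts on membrane-bound clients, had 3292, 3338 and 3365 normalized counts in DMSO and 3159, 3371 and 3099 at 500 nM. Its groups overlapped except at 5 nM, where the libraries (3111, 3199 and 3008) lay below DMSO with an adjusted p of 0.381. The log2 fold change at 500 nM was -0.05 with a 95% confidence interval from -0.16 to 0.05 (adjusted p = 0.502), which does not show that TMX1 stayed the same. TXNDC11 (chr16:11679083-11742857, minus strand), a thioredoxin-domain protein linked to the ER degradation machinery, had 322, 338 and 317 normalized counts in DMSO and 223, 238 and 241 at 500 nM. All its treated libraries lay below all its DMSO libraries, by the least at 5 nM, where replicate 1 had 316.4 against 316.5 in the lowest DMSO library. Its log2 fold change was -0.19 at 0.5 nM (adjusted p = 0.307), -0.22 at 5 nM (adjusted p = 0.250), -0.41 ± 0.08 at 50 nM (adjusted p = 0.00468) and -0.47 ± 0.08 at 500 nM (adjusted p = 0.000523).

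**Figure D2:**
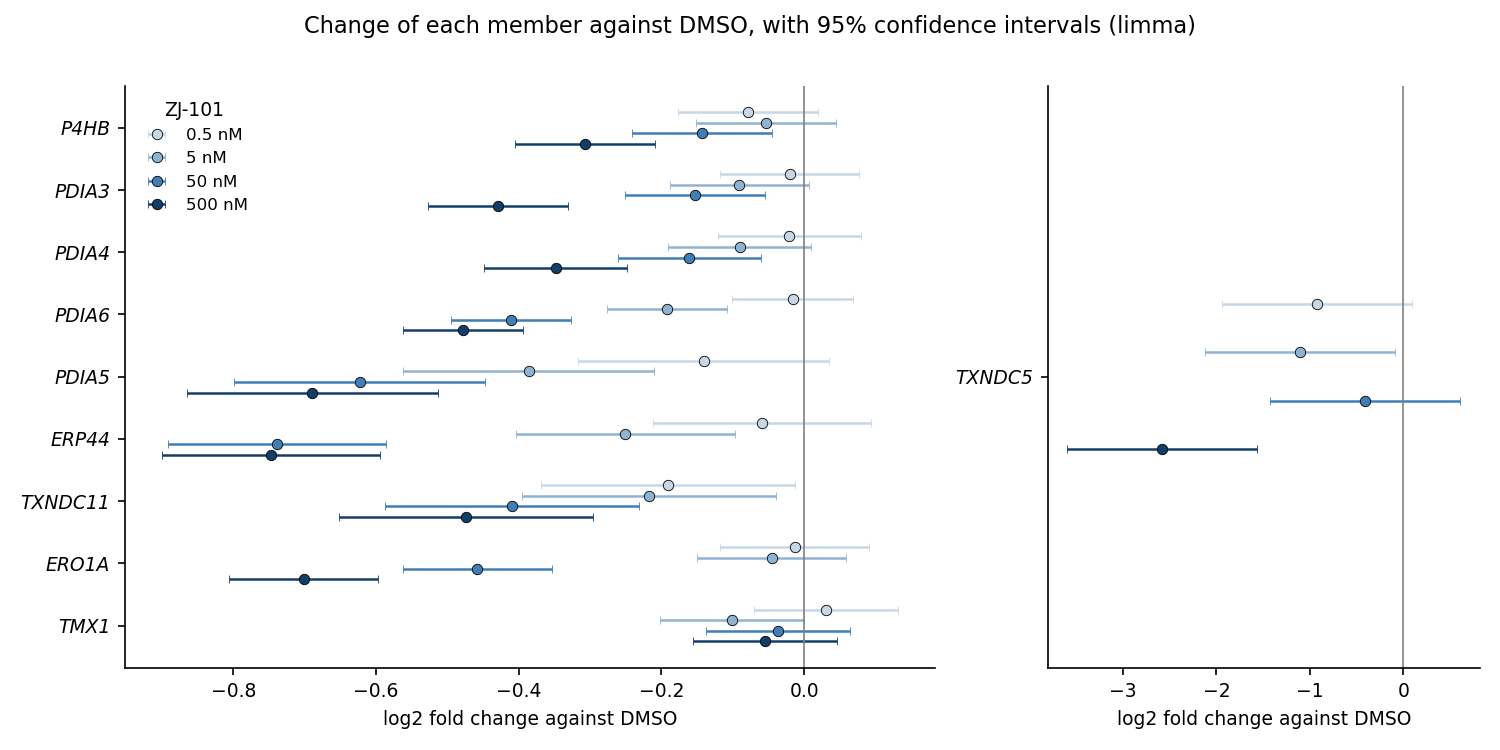
Log2 fold change of each gene against DMSO (x axis) at 4 doses (shades of blue, darkest for 500 nM), as limma estimates with 95% confidence intervals. TXNDC5 stands in a panel with its own, wider axis, where its interval at 500 nM runs from -3.59 to -1.56, and the estimates of TMX1 stay between -0.10 and 0.03.

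Tests between neighbouring doses asked where along the dose range each gene moved. The DMSO libraries do not enter these differences, but they enter the shared estimate of the spread. From 0.5 to 5 nM, 0 of 10 members were called by limma (0.0885% of all tested genes were called lower), although 4 had an unadjusted p under 0.05, and edgeR and DESeq2 each called 0. From 5 to 50 nM, 3 members were lower (2.39% of all genes), namely ERP44 at -0.49 (adjusted p = 0.000343), ERO1A at -0.41 (adjusted p = 3.74e-05) and PDIA6 at -0.22 (adjusted p = 0.00235). From 50 to 500 nM, 4 members were lower (1.8% of all genes), namely TXNDC5 at -2.17 (adjusted p = 0.0205), PDIA3 at -0.28 (adjusted p = 0.00243), ERO1A at -0.24 (adjusted p = 0.0118) and PDIA4 at -0.19 (adjusted p = 0.0447). ERO1A was the member called in both upper steps. The slope on dose rank was called for 9 members (9.33% of all genes had a lower slope) and was -0.02 for TMX1 (adjusted p = 0.357).

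The step estimates were also read as the share of a gene's change at 500 nM that was present at 50 nM. This share of the log2 change was 98.8% for ERP44, 90.3% for PDIA5, 86.3% for TXNDC11 and 85.8% for PDIA6. It was 65.3% for ERO1A, 46.7% for P4HB, 46.2% for PDIA4 and 35.6% for PDIA3. For TXNDC5 it was 15.8%, whose libraries spread widely, and for TMX1, which had no call, 67.8%. These shares are ratios of estimates, and differences between genes in them were not tested. For ERP44, the 95% confidence interval of the last step ran from -0.16 to 0.14, and for PDIA3 from -0.37 to -0.18.

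Of the step calls, those from 5 to 50 nM and that of PDIA3 from 50 to 500 nM passed the threshold under all 27 alternatives. The call of PDIA4 from 50 to 500 nM was lost without 50 nM replicate 2 (-0.12, adjusted p = 0.230) and passed in 13 of 27 alternatives. It was also lost without any single DMSO library, at an unchanged log2 change of -0.19 and adjusted p-values of 0.0613 to 0.0694. ERO1A lost the call of its last step without 50 nM replicate 2 (-0.21, adjusted p = 0.0794) or 500 nM replicate 3 (-0.25, adjusted p = 0.0515), with a log2 change close to the -0.24 of all libraries. Called members numbered 1 without either of these libraries and 2 without 50 nM replicate 3 or 500 nM replicate 2, while calls over all genes went from 309 to between 139 and 233.

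**Figure D3:**
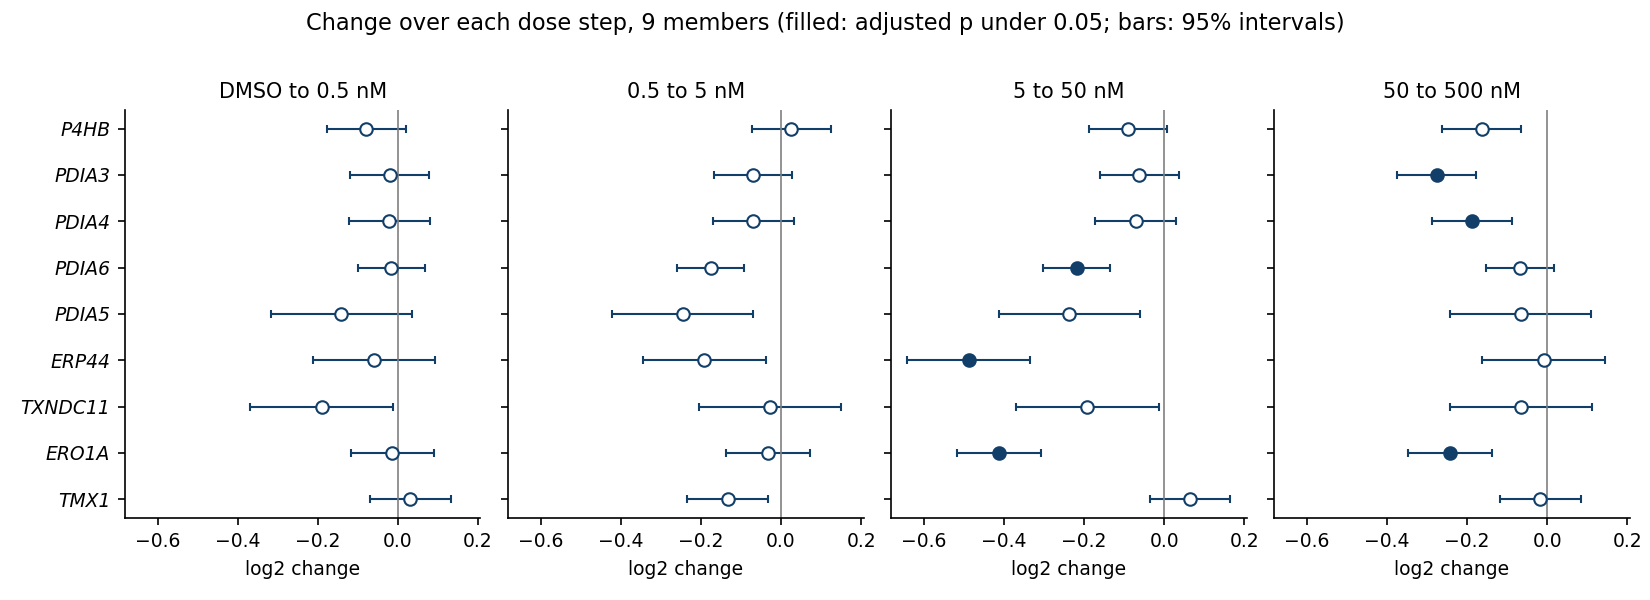
Log2 change (x axis) of 9 genes over each step from DMSO to 500 nM, with 95% confidence intervals from limma and filled points where the adjusted p was under 0.05. TXNDC5 is left out because its intervals are wider than the axis. ERP44, ERO1A and PDIA6 are filled from 5 to 50 nM, and PDIA3, PDIA4 and ERO1A from 50 to 500 nM.

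TXNDC5 (chr6:7881517-7910788, minus strand), an isomerase with 3 thioredoxin-like domains that is known from stressed and hypoxic cells, had the largest fold change and by far the widest spread. The DMSO libraries held 270.0, 368 and 399 normalized counts, those at 0.5 nM 297, 154 and 126, and those at 5 nM 87.5, 168 and 269.9. The values were 337, 219 and 229 at 50 nM and 155, 47.5 and 23.8 at 500 nM. The 500 nM libraries lay below all DMSO and all 50 nM libraries but overlapped those at 0.5 and 5 nM, and the levels did not follow the order of the doses. The log2 fold changes were -0.92, -1.10, -0.41 and -2.58, with an SE of 0.48 each and adjusted p-values of 0.399, 0.334, 0.752 and 0.000828. At 500 nM, the log2 fold change was -1.98 without 500 nM replicate 3 and -3.30 without 500 nM replicate 1, and it passed the threshold under every alternative.

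Within groups, the coefficient of variation of TXNDC5 was between 19.5% and 92.6%. The standard deviation of its residuals was 0.78 on the log2 scale, rank 82 of the 13561 tested genes from the largest. Its slope (-0.46, adjusted p = 0.0230) passed in 20 of 27 alternatives. It lost its call with edgeR (adjusted p = 0.0539), DESeq2 (adjusted p = 0.0985) and the treated libraries alone (adjusted p = 0.179). The same held without DMSO replicate 2 (adjusted p = 0.0530) or 3 (adjusted p = 0.0553) and without 500 nM replicate 2 (adjusted p = 0.0914) or 3 (adjusted p = 0.103). Its last step lost its call with DESeq2 (adjusted p = 0.0840), without any single 50 nM library and without 500 nM replicate 2 or 3, with adjusted p-values up to 0.132. Without TXNDC5, 8 of 9 members were called at 500 nM.

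TXNDC5 shares 61.1% of its 4361 annotated exon bases with other genes, and 61.0% with genes on its own strand. The partner on this strand is BLOC1S5-TXNDC5, a readthrough gene with 3030 exon bases of which 100% are shared with other genes. It had 0 normalized counts in every library. Since it has no exon bases of its own, this value does not show that the readthrough was not transcribed. Of the canonical TXNDC5 transcript of 2938 bases, 90.6% is shared, and the 275 bases that are not lie at its 5′ end. These bases have a GC content of 77.5%, beside 51.0% for the whole transcript and 47.0% for the median gene. How reads that fall on both genes were assigned is not given in the sources used here, and the part of exon sharing and GC content in the spread of TXNDC5 was not tested. BLOC1S5, the upstream gene of the readthrough, had 284 to 381 normalized counts and a log2 fold change of -0.31 at 500 nM (adjusted p = 0.00140).

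**Figure D4:**
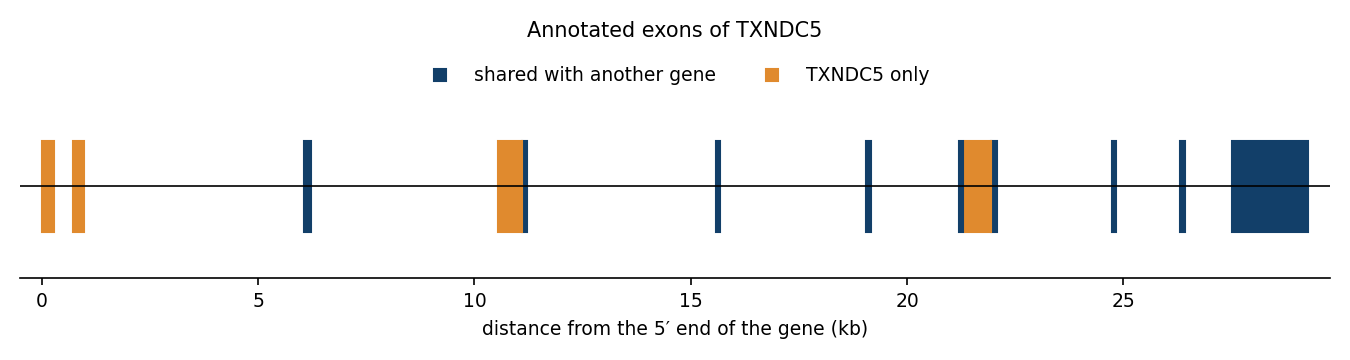
Annotated exons of TXNDC5 (boxes, to scale) by distance from the 5′ end of the gene in kb (x axis). Blue parts are shared with exons of another gene and orange parts belong to TXNDC5 alone. Orange parts lie at the 5′ end and inside the gene in longer exon forms, and the last exons are blue.

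Other genes of ER thiol chemistry were listed to set the members in context. The list held 24 genes, namely further members of the isomerase family, oxidases and ER peroxidases, of which 19 were tested. Called lower were 0, 2, 6 and 11 of them at 0.5, 5, 50 and 500 nM, beside 0.922%, 1.71%, 3.71% and 10.1% of all tested genes. At 500 nM, 1 was called higher, beside 7.69% of all tested genes. At 0.5 nM, 2 had an unadjusted p under 0.05 by limma, edgeR called 0 and DESeq2 called 1. The median log2 fold change of the 19 genes at 500 nM was -0.24, beside 0.00 for all tested genes. The largest falls were those of ERO1B, the paralog of ERO1A, at -1.08 ± 0.12 (adjusted p = 1.78e-06), and QSOX2, a sulfhydryl oxidase, at -0.92 ± 0.06 (adjusted p = 1.45e-09). TXNDC15, a membrane protein with a thioredoxin domain, followed at -0.80 ± 0.05 (adjusted p = 2.87e-09), and AGR2, a mucin-folding relative of the isomerases, at -0.60 ± 0.09 (adjusted p = 0.000126). The gene that rose was TMX2, a membrane relative of TMX1, at 0.27 ± 0.06 (adjusted p = 0.00326). ERO1B and TXNDC15 were also the 2 genes called at 5 nM, at -0.60 (adjusted p = 0.00893) and -0.25 (adjusted p = 0.0160). Both ERO1 oxidases were lower at 50 nM, with ERO1B at -1.03 and ERO1A at -0.46.

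Of 6 genes whose products bind a member, 4 were tested. CALR, the lectin calreticulin that presents glycoproteins to PDIA3, was lower at 5 nM (-0.25, adjusted p = 0.00980), 50 nM (-0.63, adjusted p = 7.26e-08) and 500 nM (-0.85, adjusted p = 5.17e-10). CANX, the membrane-bound lectin calnexin, was at -0.09 at 500 nM with an adjusted p of 0.241. P4HA1, a catalytic subunit that joins P4HB in collagen prolyl 4-hydroxylase, was lower at 500 nM (-0.40, adjusted p = 8.58e-05), and P4HA2 was at -0.13 (adjusted p = 0.135). P4HA3 and MTTP, further partners of P4HB, had at most 9.27 and 2.67 normalized counts and were not tested.

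**Figure D5:**
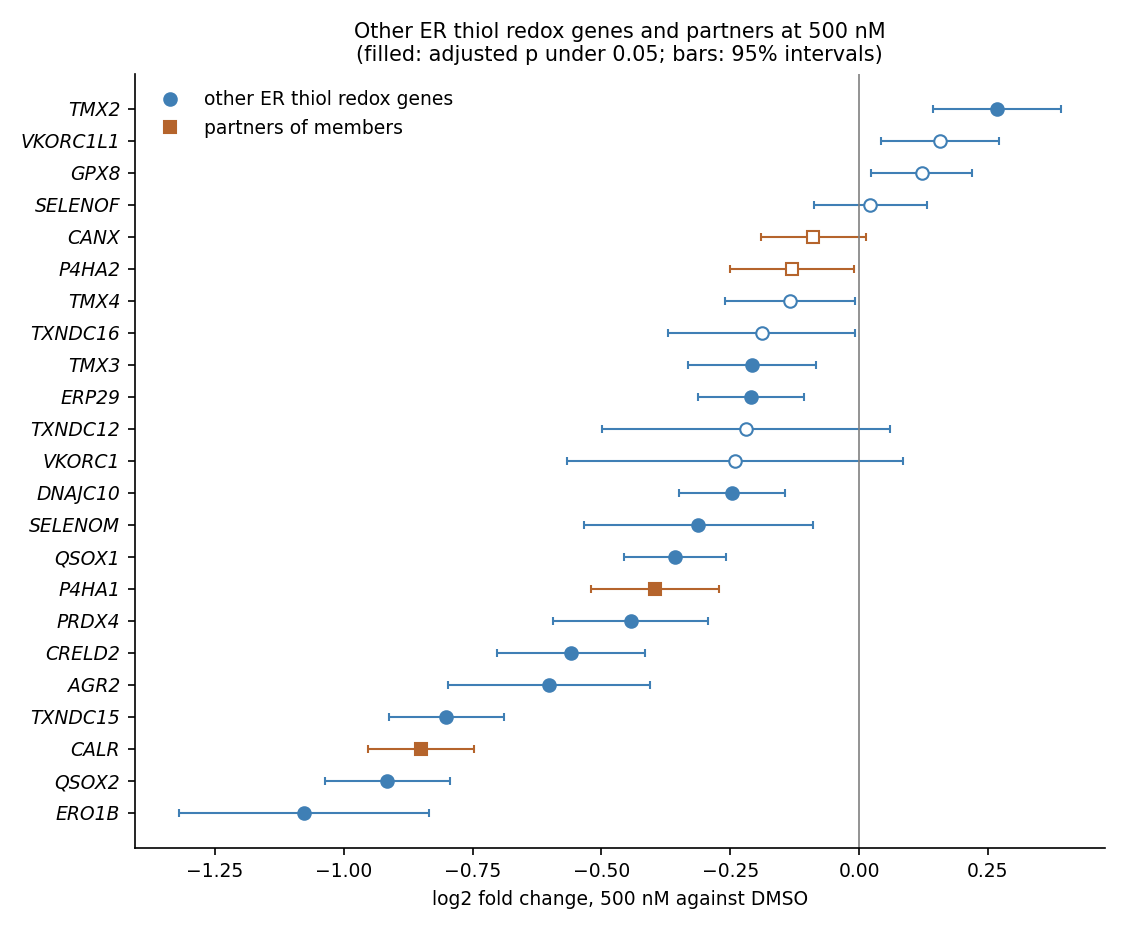
Log2 fold change at 500 nM against DMSO (x axis) of 19 other ER thiol redox genes (blue circles) and 4 partners of members (brown squares), with 95% confidence intervals from limma and filled symbols where the adjusted p was under 0.05. ERO1B, QSOX2, CALR and TXNDC15 stand lowest, and TMX2 is the filled symbol above 0.

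For ERO1A and ERP44, which with TXNDC5 had the largest change at 500 nM, the tested genes with the most similar log2 fold changes were found by the root mean square difference over the 4 doses. For ERO1A these were B3GLCT (0.0397) and FLRT2 (0.0432). For ERP44 they were TXNDC15 (0.0659) and CASTOR2 (0.0679). All 4 fold changes of a gene share its DMSO libraries, so this likeness is a description over 4 values.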

How the data were processed

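RNA of 15 samples was measured. Per the labels and the methods, the authors selected poly-A RNA, used HISAT2 (hg38) for alignment and HTSeq for counts per gene, and divided these by DESeq2 size factors. The deposited signal values are these normalized counts. The strand setting and tool versions are not given in the sources used here. 1 line that names no gene was omitted. Whole reads came back within a tolerance of 0.001, and size factors lay between 0.916 and 1.13. Recovered reads numbered 12415519 to 15284762 per library, which limits the precision of genes with few reads.

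The main test was limma 3.58.1 (R 4.3.3) with a variance trend on log2(normalized count + 1), for genes with a mean of at least 10, with 10 residual degrees of freedom. Fold changes on this scale understate the change of low genes. P-values were adjusted by the Benjamini-Hochberg method over all 13561 genes. Each dose was compared with DMSO and with the next dose, and another fit gave the slope on dose rank. The script was tested on simulated data.

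Alternatives were pseudocounts of 0.5 and 5, no filter or a mean of at least 50, TMM scaling, equal totals, the replicate number as a block, counts summed with genes of shared sequence, edgeR 4.0.16 and DESeq2 1.42.0 on recovered reads, the compared libraries alone, and each library left out. Chosen after seeing the data were the removal of GC and length trends, canonical lengths and the omission of TXNDC5. Positions and exons come from GENCODE release 44. The members and gene lists were chosen with earlier results of these data known. Named are all members, genes that share sequence with them, up to 4 called genes each way at 500 nM from each list by size, and the 2 genes most like each of the 3 members with the largest change, of which the result for TXNDC5 is not reported here. The genes called at 5 nM and the printed promoters were singled out after their values were seen.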

Additional observations from a re-analysis of the deposited data

How the results depend on the processing

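Under 27 alternatives, of which 15 left out a library, 9 members were called lower at 500 nM each time. Over the 10 members, the 4 doses against DMSO and these alternatives, 1050 fold changes stayed on their side of the threshold, 21 gained a call and 9 lost one, and no called fold change turned its direction.

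Members called at 5 nM numbered 4 with the libraries of the compared groups alone, where calls over all genes went from 295 to 846, and at 50 nM 8 with DESeq2, where they went from 814 to 834. Of the other ER thiol redox genes, 1 was called at 0.5 nM with the replicate block, with GC and length trends removed and with DESeq2. Leaving out 1 library gave 0 to 3 called members at 5 nM, 5 to 8 at 50 nM, 9 to 9 at 500 nM, 3 to 3 from 5 to 50 nM, 1 to 5 from 50 to 500 nM and 8 to 9 by slope. For the other redox genes it gave 0 to 1 at 0.5 nM, 0 to 4 at 5 nM, 4 to 8 at 50 nM and 10 to 13 at 500 nM. Calls over all genes ranged from 113 to 623 at 5 nM and from 560 to 1276 at 50 nM with 1 library left out. The cause of these shifts was not tested.

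Replicate numbers gave no clear sign of pairing between the libraries. Of 30 pairs with the same number, 0 had a correlation of deviations above 0.1 (range -0.0855 to 0.0961). The median correlation was 0.0121 for these pairs and -0.000562 for the other pairs. By mean correlation with the libraries of other groups, 7 of 15 libraries were closest to those with their own number. The replicate block gave 0, 2, 5 and 9 called members at the 4 doses, as without it. The median of all genes moved by less than 0.1 on the log2 scale under each scaling. At 23.8 to 155 normalized counts, TXNDC5 at 500 nM was the least deeply measured value.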
